A study of Mus musculus with 19 samples.

Results

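The transcripts of 8 receptors through which microglia and macrophages take up antibody-coated, lipid-coated or dying material were followed in the CA1 region of the mouse hippocampus: the Fc gamma receptor genes Fcgr1, Fcgr2b, Fcgr3 and Fcgr4, their signalling partner Fcer1g, the scavenger receptor genes Msr1 and Cd36, and the receptor kinase gene Mertk. They were chosen by symbol, as 8 of the 48709 genes in the count files, and all 8 were among the 19284 genes tested. RNA came from mice of 7 months, from tissue that is labelled CA1 and that the study's figure legend calls dorsal hippocampal. WT control (n = 6) were wild-type littermates and APP control (n = 6) were APPPS1-21 mice, both injected into the dorsal hippocampus with lipid nanoparticles that carried a control oligonucleotide. APP anti-miR-mix (n = 7) were APPPS1-21 mice whose nanoparticles carried inhibitors of 3 microRNAs, which were miR-148a-3p, miR-181a-5p and miR-146a-5p. In the water maze the study's groups of these kinds held males and females in unequal shares. Sex was not a term in the fits here. APPPS1-21 mice carry mutant human APP under the Thy1 promoter, which is active in neurons, and form amyloid deposits. In the wild-type titles the mixture is named next to "control", while the study describes a control injection, and the latter reading was used. The design text calls the control a negative control siRNA.

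Fc gamma receptors bind the constant part of immunoglobulin G. In the mouse, the products of Fcgr1, Fcgr3 and Fcgr4 are activating receptors that signal through the FcR gamma chain encoded by Fcer1g, whose phosphorylated motif recruits the kinase Syk. The product of Fcgr2b is the inhibitory member and recruits the phosphatase SHIP1. Msr1 encodes scavenger receptor A and Cd36 a class B scavenger receptor that also takes up fatty acids, and both bind fibrillar amyloid. Mertk encodes a kinase of the TAM family that recognises phosphatidylserine on dying cells through the bridging proteins Gas6 and protein S. In the brain most of these receptors are found on microglia and on the macrophages at its borders, whereas Cd36 is also made by endothelium and Mertk also by astrocytes.

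Total counts ranged from 19362343 to 37018917 per library. The labelled tissue was read with 6 neuron genes, 4 enriched in CA1 (Wfs1, Fibcd1, Mpped1 and Pou3f1) and 2 found in neurons in general (Rbfox3 and Snap25), whose summed normalized counts had medians of 96024 (WT control), 87767 (APP control) and 86660 (APP anti-miR-mix) and none of which passed the test in any comparison. No markers of other hippocampal fields were read beside them, so these sums do not tell CA1 from the rest of the hippocampus. APP control 5 stood apart: the summed level of 7 monocyte and neutrophil genes was 3218 there against a group median of 81.9, its sums of blood (2715) and endothelium (6451) genes were the highest of its group, and its sum of 11 homeostatic microglia genes was the lowest at 16354. WT control 5 (2419) and APP anti-miR-mix 6 (1697) had the highest sums of choroid plexus genes in their groups. The fold changes of the members on the scale of all genes and their ratios to Fcgr2b were also computed without each library in turn.

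The order of the members was compared per length of exon, as normalized counts (counts divided by a size factor per library) per kilobase. In WT control the highest level was that of Fcer1g, at 424 ± 125 per kilobase (SD, n = 6), followed by Mertk at 351 ± 16.3 and Fcgr3 at 241 ± 54.1. Fcgr1 (75.3 ± 21.2), Fcgr2b (41.2 ± 15.8) and Fcgr4 (27.8 ± 19.3) formed a middle group, and Cd36 (16.8 ± 6.51) and Msr1 (3.54 ± 2.25) were lowest. The ranges of neighbours overlapped except between Fcgr3 and Fcgr1 and between Cd36 and Msr1, and Fcer1g exceeded Mertk in only 3 of 6 libraries. In APP control Fcgr3 (666 ± 160) stood above Mertk (437 ± 46.1) in 5 of 6 libraries, below Fcer1g at 1125 ± 391, and Fcgr2b (131 ± 37.5) was near Fcgr1 (146 ± 50.4). APP anti-miR-mix had the same order as APP control, with Fcer1g at 1172 ± 263, Fcgr3 at 646 ± 115, Mertk at 449 ± 20.2, Fcgr1 at 162 ± 36.6 and Fcgr2b at 124 ± 33.9. The place of Fcgr2b depends on the length used: with its longest transcript in place of all exons it reached 215 per kilobase in APP control and stood above Fcgr1.

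**Figure D1:**
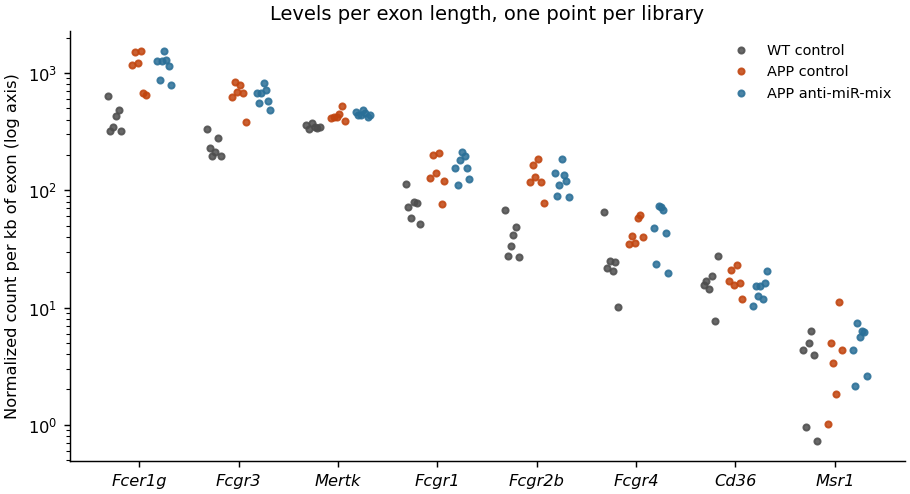
Normalized counts per kilobase of exon (log axis) of the 8 members, 1 point per library, coloured by group and ordered by the mean in APP control. Fcer1g lies at the top and Msr1 at the bottom in each group, and Fcgr3 stands below Mertk in WT control and mostly above it in both APP groups.

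The first comparison asked which of these genes respond to the transgenes. Fcgr2b, Fcgr3 and Fcer1g were 2.65 to 3.18 times as high in APP control as in WT control, Fcgr1 1.93 times and Mertk 1.24 times, and these 5 of 8 members passed the test. Over all genes tested, 4.71% passed and 3.66% passed as higher. The median log2 fold change of the 8 members was 0.82, against -0.01 over all genes. Fcgr4, Msr1 and Cd36 did not pass. All calls are from DESeq2 with Benjamini-Hochberg adjustment over all genes, and edgeR called the same number, 5, with 3.22% of all genes.

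Fcgr2b (ENSMUSG00000026656, GRCm38 chromosome 1, 170958617 to 170976547, minus strand) had between 155 and 396 normalized counts in WT control (median 218) and between 452 and 1065 in APP control (median 714). The groups did not overlap. The log2 fold change of this inhibitory receptor gene was 1.67 (SE 0.23, adjusted p = 3.77e-10), the largest among the members. Fcgr3 (ENSMUSG00000059498, chromosome 1, 171051174 to 171064935, minus strand), a low-affinity activating receptor gene, lay between 342 and 575 in WT control (median 383) and between 660 and 1454 in APP control (median 1187). Its groups did not overlap either, and with a log2 fold change of 1.46 (SE 0.17, adjusted p = 3.16e-14) it ranked 8 among all genes by p. Both genes lie in the Fcgr cluster and share sequence. Of the 50-base stretches of their transcripts, 9.58% in Fcgr3 and 6.95% in Fcgr2b also occur in another gene, 166 of them in both. A read from such a stretch fits more than 1 gene, and how such reads were counted was not examined. No 50-base stretch of the other 6 members occurs in another gene.

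Fcer1g (ENSMUSG00000058715, chromosome 1, 171229572 to 171234365, minus strand) had between 280 and 559 normalized counts in WT control (median 339.9) and between 566 and 1355 in APP control (median 1041). The highest WT control library and the lowest APP control library lay side by side without overlap, and the log2 fold change was 1.41 (SE 0.22, adjusted p = 8.61e-08). The high-affinity receptor gene Fcgr1 (ENSMUSG00000015947, chromosome 3, 96282909 to 96293969, minus strand) had between 134 and 290 in WT control (median 194) and between 198 and 537 in APP control (median 348). APP control 5, at 198, lay within the WT control range and the other 5 libraries above it. The log2 fold change was 0.95 (SE 0.22, adjusted p = 0.000918), and 1.08 without APP control 5.

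Fcgr4 (ENSMUSG00000059089, chromosome 1, 171018920 to 171029761, plus strand), the remaining activating receptor gene, was far less abundant. It had between 12.6 and 82.4 normalized counts in WT control (median 28.9) and between 43.7 and 76.8 in APP control (median 50.8). The value of 82.4 belonged to WT control 1, and the remaining 5 of that group lay at or below 31.4, under every APP control library. With all libraries the log2 fold change was 0.69 (95% interval -0.02 to 1.40, adjusted p = 0.377). Without WT control 1 it was 1.15 and passed (adjusted p = 0.0105). WT control 1 also had the highest WT control level of Fcgr1, Fcgr2b, Fcgr3 and Fcer1g, and without it the log2 fold change of Fcgr2b was 1.87.

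Mertk (ENSMUSG00000014361, chromosome 2, 128698956 to 128802894, plus strand) varied least. It had between 1434 and 1642 normalized counts in WT control (median 1506) and between 1693 and 2270 in APP control (median 1831), with no overlap and a log2 fold change of 0.32 (SE 0.06, adjusted p = 3.16e-05). The highest value belonged to APP control 5, and without it the log2 fold change was 0.26. In all, 4 of 8 members (Fcgr2b, Fcgr3, Fcer1g and Mertk) were higher without overlap between the groups, which 1.2% of all genes were.

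The scavenger receptor genes did not pass. Msr1 (ENSMUSG00000025044, chromosome 8, minus strand) had between 4.57 and 40.3 normalized counts in WT control (median 26.2) and between 6.40 and 71.2 in APP control (median 24.4). The highest value was that of APP control 5, and the log2 fold change of 0.32 (95% interval -0.65 to 1.30, adjusted p = 0.901) was -0.21 without it. Cd36 (ENSMUSG00000002944, chromosome 5, 17781690 to 17888801, minus strand) had between 27.8 and 99.4 in WT control (median 58.2) and between 42.1 and 82.9 in APP control (median 59.4). The lowest and the highest library were both WT control, and the log2 fold change was 0.05 (95% interval -0.41 to 0.52, adjusted p = 0.971). The interval of Msr1 includes a 2.46-fold difference, whereas that of Cd36 ends at 1.43-fold.

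**Figure D2:**
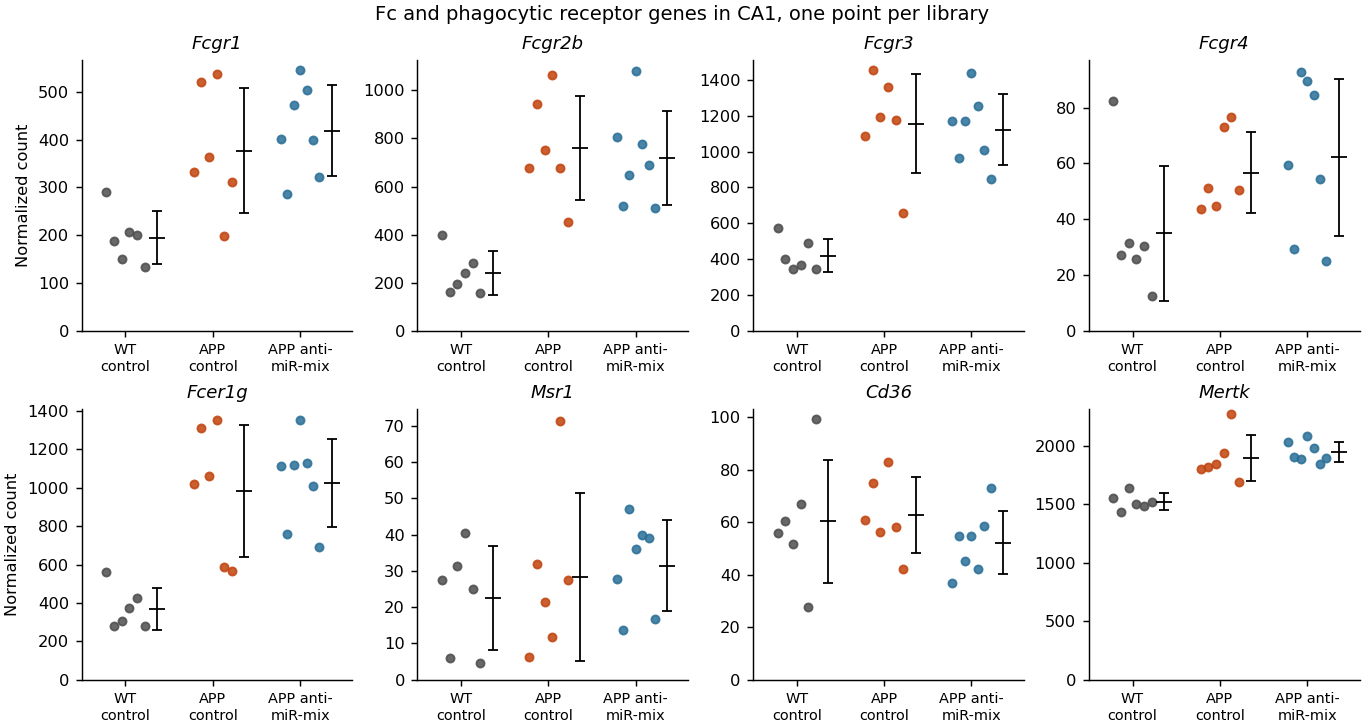
Normalized counts of each member, 1 point per library, with the mean and SD of each group beside the points. APP control and APP anti-miR-mix lie above WT control for Fcgr2b, Fcgr3, Fcer1g and Mertk without overlap, WT control 1 is the single high WT control point of Fcgr4 at 82.4, and Msr1 and Cd36 overlap throughout.

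These are bulk samples, in which more cells of a type and more RNA per cell cannot be told apart. The homeostatic microglia genes themselves rose, with 9 of 11 past the test and a median log2 fold change of 0.87 in APP control against WT control. Their summed level was 12620 to 18787 (WT control), 16354 to 35430 (APP control) and 24097 to 37164 (APP anti-miR-mix). The members were therefore also fitted with size factors taken from these 11 genes, a scale on which the median of all genes moved to -0.72 and 78% of all genes passed, 0.654% as higher and 77.3% as lower. On it Fcgr2b (log2 fold change 0.94, adjusted p = 0.000237), Fcgr3 (0.75, adjusted p = 0.000804) and Fcer1g (0.60, adjusted p = 0.00103) were still higher in APP control, so these 3 rose by more than the homeostatic genes did. Fcgr1 did not differ detectably from those genes (0.14, SE 0.17, adjusted p = 0.434). Mertk, called higher on the scale of all genes, had the opposite sign at -0.35 (adjusted p = 0.13), between the homeostatic genes and the median of all genes. Cd36 stood at -0.73 (adjusted p = 0.0162), where the median of all genes stood. Without APP control 5, a fit added after seeing that library, the 3 leading members kept their calls (0.74 for Fcgr2b, 0.49 for Fcgr3 and 0.55 for Fcer1g), Fcgr1 was at 0.13 (adjusted p = 0.426) and Mertk was called lower at -0.69 (adjusted p = 1.35e-06), with the median of all genes at -0.95, 88.6% of genes called and 88% called lower.

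As a share of the summed homeostatic counts, Fcgr2b lay between 1.09% and 2.18% in WT control (median 1.53%), 2.09% and 4.13% in APP control (median 2.53%), 2.03% and 2.91% in APP anti-miR-mix (median 2.43%). The lowest APP libraries were just inside the WT control range. Fcgr1 lay between 0.938% and 1.60%, between 1.11% and 1.52% and between 1.19% and 1.64% in the same order, so its ranges covered each other. Mertk had medians of 9.93%, 5.88% and 6.53%.

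**Figure D3:**
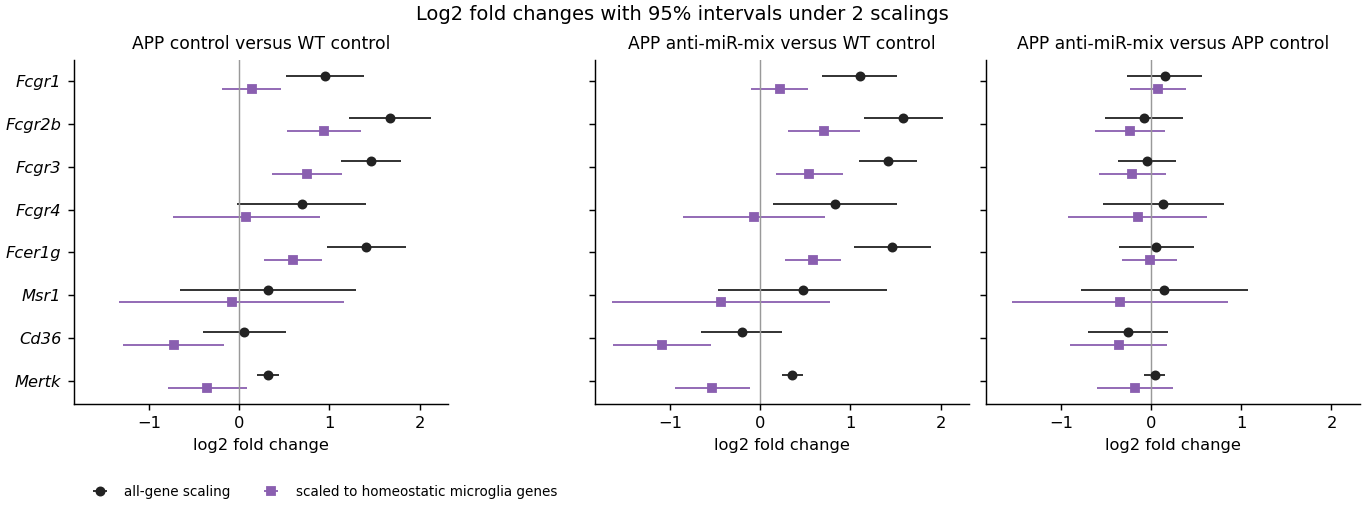
Log2 fold changes with 95% intervals for the 8 members in the 3 comparisons, scaled to all genes (black circles) and to 11 homeostatic microglia genes (purple squares, a scale on which the median of all genes is at -0.72 in APP control against WT control). The intervals of Fcgr2b, Fcgr3 and Fcer1g stay above 0 on both scales against WT control, those of Fcgr1 and Mertk do so on the all-gene scale but not on the other, and for APP anti-miR-mix versus APP control each interval on the all-gene scale includes 0.

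Because Fcgr2b opposes the activating receptors, the ratio of each activating gene to Fcgr2b was compared between groups. The ratio of counts within a library does not depend on library scaling, and the tested log2 ratio does so only through the 1 added to each normalized count, which weighs most in the rare Fcgr4. The ratio of Fcgr1 to Fcgr2b lay between 0.709 and 1.17 in WT control (median 0.814), between 0.293 and 0.692 in APP control (median 0.498) and between 0.499 and 0.729 in APP anti-miR-mix (median 0.579). WT control and APP control did not overlap. The mean log2 ratio fell by 0.78 in APP control (two-sided exact permutation test over libraries, p = 0.00216, the smallest that 6 against 6 libraries can give, adjusted p = 0.0105 over 9 tests) and by 0.51 in APP anti-miR-mix against WT control (exact permutation p = 0.00233, adjusted p = 0.0105). Between the APP groups it differed by 0.27 (exact permutation p = 0.152, adjusted p = 0.227), and by 0.37 (adjusted p = 0.042 by the same exact test) without APP control 6, the library with the highest ratio of its group. Without APP control 5, the library with the lowest, it was 0.12. In 12 of 13 such tests with 1 library left out it did not pass, with adjusted p up to 0.406 by the same exact test.

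For Fcgr3, the other abundant activating receptor gene, the ratio to Fcgr2b had medians of 1.74 (WT control), 1.56 (APP control) and 1.61 (APP anti-miR-mix), with overlapping ranges, and the log2 difference of -0.25 between APP control and WT control did not pass (exact permutation p = 0.117, adjusted p = 0.21). The ratio of Fcgr4 to Fcgr2b had medians of 0.134, 0.0667 and 0.0792. Against WT control its log2 differences of -0.83 (APP control) and -0.74 (APP anti-miR-mix) each gave an adjusted p of 0.0524 by the exact permutation test, just short of the threshold, and both crossed it with single libraries left out. The first was -0.95 (adjusted p = 0.042 by the same exact test) without APP control 6. The second was -0.87 (adjusted p = 0.0379) without WT control 6, -0.88 (adjusted p = 0.0195) without APP anti-miR-mix 3 and -0.81 (adjusted p = 0.0487) without APP anti-miR-mix 5, by the same exact test. The other tests with 1 library left out, 11 of 12 for the first and 10 of 13 for the second, did not pass. Their adjusted p reached 0.108 in each case by the same exact test. With all libraries, the ratio to the inhibitory gene passed for Fcgr1 of the 3 activating genes, and whether the 3 ratios differed from each other was not tested.

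**Figure D4:**
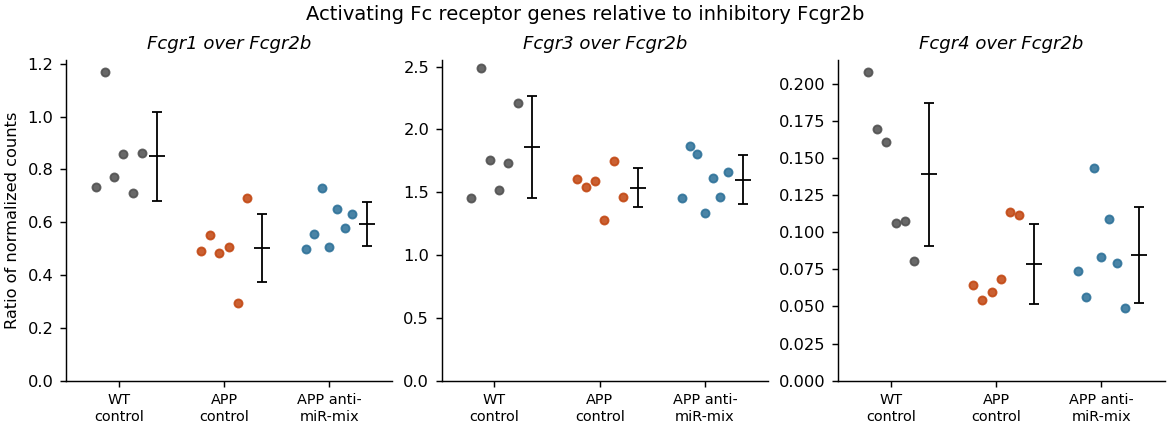
Ratio of the normalized counts of Fcgr1, Fcgr3 and Fcgr4 to those of Fcgr2b, 1 point per library with mean and SD. For Fcgr1 the APP control points (0.293 to 0.692) lie below all WT control points (0.709 to 1.17), whereas the groups overlap for Fcgr3 and Fcgr4.

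The second comparison asked whether the inhibitors changed these genes within APPPS1-21 mice. The inhibitors were antisense to the mature microRNAs, which repress transcripts that pair with their seed (bases 2 to 8, in capitals). They are shown with the RefSeq mature sequences and then the strand given as inhibitor.
miR-146a-5p: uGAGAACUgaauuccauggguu
inhibitor of miR-146a-5p, pairing with bases 2 to 21: acccatggaattcagttctc
miR-148a-3p: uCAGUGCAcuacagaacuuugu
inhibitor of miR-148a-3p, pairing with bases 3 to 21: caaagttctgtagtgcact
miR-181a-5p: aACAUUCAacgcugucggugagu
inhibitor of miR-181a-5p, pairing with bases 3 to 23: actcaccgacagcgttgaatg
The longest annotated 3′ UTR of each member was searched for a match to each seed. Each of 3 members held 1 match (in capitals, GRCm38), and no other pairing of a member with one of the 3 microRNAs was found.
Fcgr2b and miR-146a-5p (chr1:170959947-170959975, minus strand): tatgtaacaggAGTTCTCaggaagtcaaa
Cd36 and miR-148a-3p (chr5:17781805-17781833, minus strand): gtgcacccttcTGCACTGcatgtggtgat
Mertk and miR-181a-5p (chr2:128802553-128802581, plus strand): tagcacaacttTGAATGTgatagcacaca
Among 3′ UTRs within 10% of the same length, 19.1% hold a match for miR-146a-5p at the length of Fcgr2b, 15.0% for miR-148a-3p at that of Cd36 and 15.0% for miR-181a-5p at that of Mertk. Of the 3, only Fcgr2b is in the study's list of predicted targets of the microRNA concerned.

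No member passed for APP anti-miR-mix versus APP control (0 of 8, with 0% of all genes called). At an unadjusted p under 0.05 there were likewise 0 members, against 552 genes in DESeq2 (2.86%) and 572 in edgeR (2.96%), and edgeR called 0 members after adjustment. The smallest unadjusted p among the members was 0.253, for Cd36. The median log2 fold change of the members was 0.05, and each adjusted p was 1.00.

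The 3 members with a seed match had these values. Fcgr2b had between 452 and 1065 normalized counts in APP control (median 714) and between 510 and 1080 in APP anti-miR-mix (median 689), a log2 fold change of -0.08 (95% interval -0.52 to 0.35). Cd36 had between 42.1 and 82.9 (median 59.4) and between 36.7 and 73.0 (median 54.5), a log2 fold change of -0.26 (95% interval -0.70 to 0.19). Mertk had between 1693 and 2270 (median 1831) and between 1840 and 2085 (median 1904), a log2 fold change of 0.04 (95% interval -0.08 to 0.15). The ranges overlapped in each case, and the upper ends of the intervals are rises of 1.27, 1.14 and 1.11 times.

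The 5 members without a match in that search did not pass either. Fcgr3 had between 846 and 1441 normalized counts in APP anti-miR-mix (median 1170) and a log2 fold change of -0.04 (95% interval -0.36 to 0.28). Fcer1g had between 690 and 1352 (median 1115) and a log2 fold change of 0.06 (95% interval -0.36 to 0.48). Fcgr1 had between 287 and 546 (median 403) and a log2 fold change of 0.15 (95% interval -0.26 to 0.57). Those 3 genes overlapped with APP control over most of their ranges. The rare members Fcgr4, between 24.9 and 93.0 (median 59.5), and Msr1, between 13.6 and 47.0 (median 35.9), differed by 0.14 (95% interval -0.54 to 0.81) and 0.15 (95% interval -0.78 to 1.08) on the log2 scale. Their intervals ran from 0.69 to 1.75 times and from 0.58 to 2.11 times, the widest of the members. With 1 library left out at a time, the log2 fold change ran from 0.012 to 0.27 for Fcgr4 and from -0.060 to 0.67 for Msr1.

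The third comparison set APP anti-miR-mix against WT control. It shares the WT control libraries with the first, so the values are given beside it and not as a repeat. Again 5 of 8 members passed, all higher, where 8.96% of all genes passed and 5.59% passed as higher. They were Fcgr2b (log2 fold change 1.59, adjusted p = 3.24e-10), Fcer1g (1.47, adjusted p = 2.18e-09), Fcgr3 (1.42, adjusted p = 1.16e-14), Fcgr1 (1.10, adjusted p = 1.53e-05) and Mertk (0.35, adjusted p = 3.13e-07). Fcgr2b, Fcgr3, Fcer1g and Mertk did not overlap with WT control, which held for 2.52% of all genes in that direction, and 6 of 7 Fcgr1 values lay above the highest WT control library. Fcgr4 differed by 0.83 (95% interval 0.14 to 1.51, adjusted p = 0.128), Msr1 by 0.47 (-0.47 to 1.41) and Cd36 by -0.20 (-0.65 to 0.24).

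The call of Fcgr4 changed with the libraries and the model used: its log2 fold change passed without WT control 1 (1.29, adjusted p = 0.00129) and without APP anti-miR-mix 7 (0.96), the lowest of its group at 24.9, and also with all libraries and the replicate number in the model (1.03, adjusted p = 0.021). On the scale of the homeostatic genes, which rose by a median of 0.92 here, Fcgr1 lost its call (0.22, adjusted p = 0.191) and Mertk was lower (-0.53, adjusted p = 0.0162), while the median of all genes moved to -0.89 and 85.5% of genes passed, 84.8% as lower. Fcgr2b (0.71), Fcer1g (0.59) and Fcgr3 (0.54) kept theirs.

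Within groups the Fc receptor genes varied together. With the group means removed, the Pearson correlation over 19 libraries was 0.90 between Fcgr2b and Fcer1g, 0.89 between Fcgr1 and Fcer1g, 0.88 between Fcgr2b and Fcgr3 and 0.83 between Fcgr3 and Fcer1g. Fcgr4 had correlations of 0.56 to 0.70 with these 4. Mertk correlated with Fcgr3 at 0.38 and with Fcgr1 at -0.22, where the rank correlation was 0.05 and APP control 5 was both the lowest Fcgr1 and the highest Mertk library of its group, and Cd36 with no member above 0.02. These are descriptions: the values come from the same libraries and share their size factors, and the low counts of Msr1, Cd36 and Fcgr4 limit what a correlation can show.

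**Figure D5:**
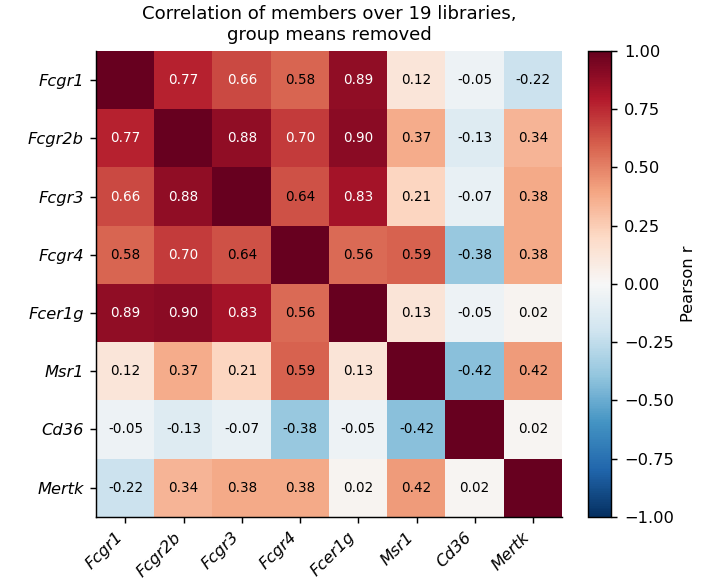
Pearson correlation between members over 19 libraries after removing group means, from -1 (blue) to 1 (red). Fcgr1, Fcgr2b, Fcgr3 and Fcer1g form a block between 0.66 and 0.90, and Cd36 and Mertk lie outside it.

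Among the genes with a mean of at least 50 normalized counts (14090, and 14091 for Msr1), the 3 whose levels were most like a member's were found by the same correlation. For Fcer1g they were C1qa (0.98), a chain of complement C1q, Ptpn6 (0.97), the phosphatase SHP-1, and Cyba (0.97), a subunit of the phagocyte NADPH oxidase. Fcgr2b was most like Ncf1 (0.96), another subunit of that oxidase, Cd300c2 (0.93) and Aspg (0.93). Fcgr1 was most like Pycard (0.95), the inflammasome adaptor, Pld4 (0.95) and Lpxn (0.94), and Fcgr3 like Cd14 (0.92), the lipopolysaccharide co-receptor, Tnfrsf1a (0.92) and C1qc (0.91). Fcgr4 was most like Csf2rb (0.90), Ifi30 (0.88) and Bcl3 (0.87). The remaining 3 members had other neighbours: Tgfbi (0.89), Anxa2 (0.83) and Xdh (0.83) for Msr1, Sparc (0.84), Notch4 (0.83) and Fkbp5 (0.81) for Mertk, and Ndufaf6 (0.73), Podn (0.71) and Scml4 (0.71) for Cd36. The 99th percentile of the correlation over the genes compared was between 0.53 for Cd36 and 0.88 for Fcer1g.

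The promoters of the members were also read for the PU box, GAGGAA on either strand, a core bound by the myeloid factor PU.1. Whether this motif relates to the levels of the members or to their shared variation was not tested. RefSeq promoter sequence (GRCm38.p6, the 250 bases before the start) was matched for 7 of 8 members. The motif was found in 3 of 7, Fcgr1, Fcgr3 and Fcgr4, and in 23.3% of all 32851 promoters of that length. In these 3 activating receptor genes it lies on the strand opposite to the gene, so it appears in capitals as TTCCTC, beginning 55 bases before the start in Fcgr1, 15 in Fcgr3 (the second of 2 listed starts) and 22 in Fcgr4. The promoter of Fcgr2b, which had no match, is shown beside them.
Fcgr1 (chr3:96293970-96294219, minus strand): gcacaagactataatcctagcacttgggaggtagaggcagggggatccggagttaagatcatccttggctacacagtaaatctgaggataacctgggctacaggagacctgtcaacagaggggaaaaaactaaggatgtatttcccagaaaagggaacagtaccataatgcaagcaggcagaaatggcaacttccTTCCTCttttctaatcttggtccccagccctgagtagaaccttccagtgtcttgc
Fcgr3 (chr1:171059395-171059644, minus strand): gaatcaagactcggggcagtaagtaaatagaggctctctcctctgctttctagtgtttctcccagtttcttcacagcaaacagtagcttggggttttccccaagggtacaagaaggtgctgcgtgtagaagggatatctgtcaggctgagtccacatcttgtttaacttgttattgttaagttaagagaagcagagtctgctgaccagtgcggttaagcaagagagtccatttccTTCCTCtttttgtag
Fcgr4 (chr1:171018676-171018925, plus strand): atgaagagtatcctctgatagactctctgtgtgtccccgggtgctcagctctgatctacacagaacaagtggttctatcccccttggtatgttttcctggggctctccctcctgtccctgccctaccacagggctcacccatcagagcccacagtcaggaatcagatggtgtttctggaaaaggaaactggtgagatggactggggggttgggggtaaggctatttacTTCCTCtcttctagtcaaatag
Fcgr2b (chr1:170976072-170976321, minus strand): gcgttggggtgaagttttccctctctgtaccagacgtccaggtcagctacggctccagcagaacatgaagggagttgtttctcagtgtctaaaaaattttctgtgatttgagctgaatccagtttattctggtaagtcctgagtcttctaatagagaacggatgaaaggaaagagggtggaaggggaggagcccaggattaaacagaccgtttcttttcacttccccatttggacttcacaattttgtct
Of the members with the motif, the log2 fold changes in APP control against WT control were 1.46 (Fcgr3), 0.95 (Fcgr1) and 0.69 (Fcgr4, not passed). Of those without it they were 1.67 (Fcgr2b), 1.41 (Fcer1g), 0.32 (Mertk) and 0.05 (Cd36, not passed), so the values of the 7 members overlapped between those with and those without it.

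The genes around the members in their pathways were counted in the same way, beside 3.66% of all genes called higher in APP control against WT control. Of 21 Fc receptor signalling genes, 17 were called higher and 0 lower, with a median log2 fold change of 0.76 against -0.01 over all genes. On the scale of the homeostatic microglia genes, 0.654% of all genes were called higher and 77.3% lower. There 3 of the 21 were higher and 3 lower, with a median of 0.08. Tyrobp, an adaptor with the same kind of motif as the FcR gamma chain, went from 682 ± 236 to 2676 ± 1272 normalized counts (SD, n = 6 each, log2 fold change 1.97, adjusted p = 6.78e-08). Inpp5d, which encodes the phosphatase SHIP1 recruited by the Fcgr2b product, had a log2 fold change of 0.97 (adjusted p = 1.6e-09), Pik3cg one of 1.09 and the adaptor gene Card9 one of 0.75. Pik3cd (0.04) and the ubiquitin ligase gene Cbl (-0.01) did not pass. In APP anti-miR-mix against WT control, where 5.59% of all genes were called higher, 18 of 21 were. On the homeostatic scale 3 of the 21 were higher and 4 lower, beside 0.659% of all genes higher and 84.8% lower.

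Of 18 genes of the phagosome and the NADPH oxidase, 12 were called higher and 0 lower in APP control (median log2 fold change 0.88). On the homeostatic scale 4 were higher and 3 lower (median 0.14), beside 0.654% of all genes higher and 77.3% lower. The 12 included the oxidase subunit gene Ncf1 (log2 fold change 0.95), Rab7b of the late endosome (1.56) and the integrin gene Itgb2 (1.11), while the lysosomal membrane genes Lamp1 (0.19, adjusted p = 0.12) and Lamp2 (0.31, adjusted p = 0.302) did not pass. In APP anti-miR-mix against WT control 16 of 18 were called higher, beside 5.59% of all genes. On the homeostatic scale 5 of the 18 were higher and 4 lower, beside 0.659% of all genes higher and 84.8% lower.

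Of 16 other scavenger and pattern receptor genes tested, 5 were called higher and 0 lower (median log2 fold change 0.33). On the homeostatic scale 3 were higher and 7 lower (median -0.36). All genes on that scale had 0.654% called higher, 77.3% called lower and a median of -0.72. The 5 included Trem2, a lipid receptor gene of microglia, from 698 ± 210 to 3168 ± 1519 normalized counts (log2 fold change 2.18, adjusted p = 1.26e-09), the beta-glucan receptor gene Clec7a (2.24), Cd68 (1.67) and Cd163 (1.23), besides Colec12 (0.65), which was named after its value was seen, whereas Lrp1 (0.00) and Scarb2 (-0.01) did not pass. Of 17 TAM and engulfment genes tested, 4 were called higher and 1 lower (median 0.05), and on the homeostatic scale 0 were higher and 13 lower (median -0.68, beside -0.72 for all genes). Axl, a TAM kinase gene like Mertk, had a log2 fold change of 0.49 (adjusted p = 0.00549), the protein S gene Pros1 0.71, Itgb3 1.08 and Itgb5 0.82. The one called lower was the third TAM kinase gene, Tyro3 (-0.26), named here after its value was seen, and Mfge8 (-0.30, adjusted p = 0.304) and Adgrb1 (-0.12) did not pass.

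Of 12 other Fc receptor genes only 6 were abundant enough to test. Fcrls, a microglial Fc receptor-like gene, was called higher (1.14, adjusted p = 0.00464), while Fcgrt, the neonatal Fc receptor gene (0.20), and Trim21, a cytosolic antibody receptor gene (0.21), were not. The median of the 6 was 0.37. On the homeostatic scale 0 were higher and 2 lower (median -0.35), beside 0.654% of all genes higher and 77.3% lower. Against APP control, APP anti-miR-mix had 0 calls in each of these lists, and against WT control it had 3 of 6 other Fc receptor, 7 of 16 scavenger and 5 of 17 TAM and engulfment genes, all higher. On the homeostatic scale these became 1 higher and 2 lower, 3 higher and 7 lower, and 0 higher and 13 lower. Of all genes 0.659% were called higher and 84.8% lower on that scale. The 3 Fc receptor genes were Fcrls, Fcgrt and Fcrl1, and the 5 engulfment genes were Axl, Gas6, Pros1, Itgb3 and Itgb5, of which Fcrl1 and Gas6 were named after their values were seen.

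Markers of other cells that can make these receptors were read beside the members. Of 7 border macrophage genes, 2 (APP control) and 4 (APP anti-miR-mix) were called higher against WT control, Cd163 and Pf4 in both and Mrc1 and F13a1 in the latter. Of all genes 3.66% and 5.59% were called higher in these comparisons. In each, 6 of the 7 had a positive log2 fold change, and the lowest values were -0.77 and -0.23. The summed level of the 7 was 133 to 239 (WT control), 155 to 464 (APP control) and 243 to 436 (APP anti-miR-mix). Of the monocyte and neutrophil genes 0 of 5 tested passed. Their sums were 35.4 to 181, 37.3 to 3218 and 32.5 to 287 in the same order, and Ly6g was at 0 in APP anti-miR-mix. Of the B and plasma cell genes, relevant to Fcgr2b, 1 of 5 tested was called higher (Ighm, also in APP anti-miR-mix), and the sums were 439 to 914, 451 to 1308 and 792 to 1359. Positive log2 fold changes were seen in 3 of these 5 (APP control) and 4 (APP anti-miR-mix), with lowest values of -1.56 and -0.16. Of the natural killer and mast cell genes 0 of 1 tested passed, at sums of 9.14 to 52.0, 14.9 to 36.4 and 7.34 to 58.0. These marker genes were named after their values were seen, and the part of these cells in the results was not tested.

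For the astrocytes, which express Mertk, 0 of 6 genes passed in any comparison, and the sums ran from 131748 to 166041, from 127528 to 155535 and from 123390 to 163863. For the endothelium, which expresses Cd36, 2 of 6 (Flt1 and Cdh5) were called higher against WT control in both APP groups, with sums of 3393 to 4562, 3982 to 6451 and 3426 to 5102. All 6 had positive log2 fold changes in both, and 3.66% (APP control) and 5.59% (APP anti-miR-mix) of all genes were called higher. Of the choroid plexus and blood genes 0 of 5 tested passed in each list. Sums of the choroid plexus genes ran from 496 to 2419, from 538 to 717 and from 424 to 1697, and those of the blood genes from 493 to 979, from 642 to 2715 and from 574 to 2136. Without WT control 5 and APP anti-miR-mix 6 together, Mertk and the 4 abundant Fc receptor genes kept their calls.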

How the data were processed

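PolyA RNA of tissue labelled as microdissected CA1 was sequenced as single-end reads of 50 bases from 19 mice. The authors aligned reads to mm10 with STAR 2.5.2b and made raw counts per Ensembl gene with featureCounts (Subread 1.5.1). The annotation release and strandedness are not given in the sources used here. A table of log2 normalized values, also deposited, had been adjusted by the authors for a whole number from 1 to 5 per library whose meaning was not stated, and it entered only as an alternative. Symbols and positions are from GENCODE M21 (GRCm38).

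A gene was kept if 50% of libraries or more had 5 or more counts (19297 genes), and tests used DESeq2 1.42.0, both as in the study, with all 3 groups in 1 fit, Wald tests and an adjusted p threshold of 0.05. Library totals were 19362343 to 37018917 counts, and how far they set the precision was not tested. Intervals of fold changes are 95% Wald intervals. Nothing states that libraries come from separate litters or days, so p-values measure the spread between these animals. The chi-square between the closest libraries was 4.94 per gene, and none was taken as a duplicate. Ratios to Fcgr2b, on log2(normalized count + 1), were compared with exact permutation tests. Genes were named by a rule: all members, in each list the 4 genes with the smallest adjusted p among those called in APP control against WT control and the 2 most abundant not called, and the 3 genes most correlated with each member. Members and gene lists were chosen with earlier results of these data known. Alternatives used edgeR 4.0.16, limma 3.58.1, other filters, scalings and sets of libraries. The fits were tested on simulated data. Some items the naming rule selects are not reported here.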

Additional observations from a re-analysis of the deposited data

Results flagged for a closer look

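In 33 groups of member counts and ratios, a library lying far from the rest of its group was looked for with Dixon's test, which chance meets in about 1.65 of 33 groups, and 2 were found. The normalized count of Fcgr4 in WT control 1 was 82.4, and the remaining 5 of that group had 12.6 to 31.4. The ratio of Fcgr1 to Fcgr2b in WT control 2 was 1.17, against 0.709 to 0.860 in the others of that group. No cause of either was tested.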

How the results depend on the processing

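The number of members called was 5 against WT control in both comparisons, with a range of 4 to 6 (APP control) and 5 to 6 (APP anti-miR-mix) over the alternatives, and 0 between the APP groups under each of them. These totals hide directions: in APP control 6 were called, all higher and with Fcgr4 among them, without WT control 1 and without WT control 1 and 5, but 3 higher (Fcgr2b, Fcgr3, Fcer1g) and 3 lower (Msr1, Cd36, Mertk) on the homeostatic microglia scale without APP control 5, and on that scale 2 of the 5 in APP anti-miR-mix (Cd36, Mertk) were lower. Pathway genes called numbered 40 (33 to 45) and 49 (42 to 52) of 78 against WT control, 39 higher and 1 lower and 49 higher, but on that scale with all libraries 10 higher and 28 lower (12 shared with the 40) and 12 higher and 30 lower (18 shared with the 49). Of all genes, 0.654% and 0.659% were called higher and 77.3% and 84.8% lower on that scale. Fcgr2b, Fcgr3 and Fcer1g kept their calls against WT control under each alternative. Scaled to the homeostatic microglia genes, with the median of all genes at -0.72 and -0.89 against WT control and -0.17 between the APP groups, the signs that turned were those of Msr1 (-0.085), Cd36 (-0.73) and Mertk (-0.35) in APP control against WT control, of Fcgr4 (-0.15), Fcer1g (-0.015), Msr1 (-0.35) and Mertk (-0.18) between the APP groups and of Fcgr4 (-0.070), Msr1 (-0.43) and Mertk (-0.53) in APP anti-miR-mix against WT control, where Cd36 passed as lower (-1.09). With APP control 5 also left out, chosen after seeing the data, they were Fcgr4 (-0.33), Msr1 (-1.11), Cd36 (-0.92) and Mertk (-0.69), Fcgr3 (0.041) between the APP groups, and Fcgr4 (-0.078), Msr1 (-0.45) and Mertk (-0.54). With the adjustment number as a factor Msr1 was at -0.12 in APP control and Cd36 at 0.011 in APP anti-miR-mix, both against WT control. Without WT control 1 and 5 Cd36 was at -0.16 and Fcgr4 passed at 1.23 and 1.36, and without WT control 5 and APP anti-miR-mix 6 Cd36 was at -0.10.

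With 1 library left out at a time, values in APP control against WT control ran from -0.21 to 0.57 for Msr1 and from -0.10 to 0.25 for Cd36, and between the APP groups from -0.21 to 0.038 for Fcgr2b, from -0.16 to 0.032 for Fcgr3, from -0.059 to 0.17 for Fcer1g and from -0.060 to 0.67 for Msr1. Log2 ratios to Fcgr2b ran, for Fcgr4, from -0.96 to -0.71 (APP control) and -0.88 to -0.62 (APP anti-miR-mix) against WT control and from -0.047 to 0.21 between the APP groups, and for Fcgr1 from 0.12 to 0.37 between the APP groups. Per longest transcript, the levels were 67.3 and 215 per kilobase for Fcgr2b in WT control and APP control, 311 and 858 for Fcgr3 and 6.18 for Msr1 in WT control. The causes of these shifts were not tested.

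Replicate numbers in the titles were not taken as pairing the libraries, under a strict rule that needed every same-numbered pair to have correlated deviations above 0.1. Such a rule cannot decide whether a weaker structure is shared. Within each group the authors' adjustment number rose or stayed level as the replicate number rose, and what these numbers have in common was not tested. Of 18 same-numbered pairs 12 were above 0.1 (range -0.16 to 0.59, median 0.22, against -0.01 for other pairs), and 5 of 19 libraries were most like one of their own number. With the replicate block, genes called went from 908 to 1222 (APP control) and from 1727 to 2202 (APP anti-miR-mix) against WT control, 5 members (APP control) and 6 (APP anti-miR-mix) passed against WT control, with Fcgr4 among the latter (1.03, adjusted p = 0.021), and Fcgr3 was at 0.035 between the APP groups. Fcgr4, Msr1 and Cd36 had normalized counts under 100 per library, and how far depth or the spread between animals set their intervals was not tested.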
